A study of Mus musculus with 2 samples.

Results

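The 36 genes described here encode chromatin remodelers, histone-modifying enzymes and their partners, and the question was how open their loci are on each parental chromosome of a hybrid stem cell. Members were chosen by name, with earlier results of these data known. Each was followed through the 50 kb rows of an allele-resolved ATAC-seq table that share at least 1 base with its gene body on mm10. Of the 36 genes, 35 had a row, and together they covered 81 of the 43941 rows. Ino80, the ATPase of the INO80 remodeler, had none: the 3 grid rows over its body (chromosome 2, 119350001 to 119500000) are not in the table. Arid1a had 2 of its 3 rows. No row was shared between 2 members, but 45 of the 81 rows also held another coding gene.

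The cells were F121-6, a female mouse embryonic stem cell line with a 129 and a castaneus (CAS) chromosome set, grown in serum with LIF on mitomycin-C-inactivated embryonic fibroblasts. ATAC-seq uses a transposase to cut and tag open DNA. There were 2 replicates of this 1 group, each split by the authors into a 129 count and a CAS count. The allelic counts and shares below therefore set the 129 allele against the CAS allele within the same library. The main fits had allele as the only term and did not use this pairing. The labels do not say whether the replicates were separate cultures. The spread between these libraries may therefore be technical, and cells of a single line are a single genotype. The p-values of edgeR also hold the counting error of independent reads, so they do not measure that spread alone. The whole table held 44026 counts on 129 and 46128 on CAS in replicate 1, and 59812 on 129 and 59995 on CAS in replicate 2. Values per row ran from 0 to 18. The sources used here do not say what is counted, so a count may be a read or a site or interval. Across coding genes with 4 or more counts, the difference between the alleles varied 0.334 (replicate 1) and 0.440 (replicate 2) times as much as independent reads would. The stem cell markers had a median of 8.88 and 12.25 counts per row (alleles summed, replicates 1 and 2; 10 of 10 genes with counts), with Nanog at 16 and 19. The 11 fibroblast markers, which feeder cells express, had a median of 2 and 2 counts per row, ranging from 0 to 8 and from 1 to 10; the part of feeder cells in the counts below was not tested.

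These proteins decide how tightly DNA is packed. Remodelers of the BAF, CHD and INO80 families use ATP to move or exchange nucleosomes. Polycomb complexes mark and keep genes silent, whereas the KMT2 enzymes of the Trithorax group methylate lysine 4 of histone H3 at active promoters and enhancers. Demethylases remove such marks, and the histone H3 lysine 9 pathway with its deacetylases silences repeats and genes. Embryonic stem cells depend on many of them to keep pluripotency genes open and lineage genes poised, and the genes themselves are broadly expressed.

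Both alleles had counts at every member with a row in both replicates, apart from Kmt2a and Kdm1a, whose CAS alleles were at 0 in replicate 2. Summed over both alleles, members had a median of 4.0 counts per row in replicate 1 and 3.5 in replicate 2, against 3.0 and 3.0 over all 18577 coding genes with a row. Of all coding genes, 2236 and 1999 had no count in replicates 1 and 2. Trim28 was the highest at 19 and 19 counts in its only row, which 5 other coding genes overlap (Chmp2a, Gm31649, Mzf1, Ube2m and Zbtb45). Eed followed with 13 and 13 in a row that no other coding gene overlaps. Kdm1a (1.0 and 0.5 per row), Kmt2a (1.5 and 0.5) and Smarca4 (1.67 and 1.33) had the lowest sums of both replicates. A count in a 50 kb row cannot be assigned to a member or to its neighbour.

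Rows with a start held more counts on average than other rows of the same genes, though not in every gene. The 30 rows that hold the most upstream start listed by RefSeq had 5.80 (replicate 1) and 5.33 (replicate 2) counts per row, whereas the other 41 rows of the same genes had 2.76 and 3.05. Leaving out 5 genes with no other row, the start rows of 25 genes had 5.04 and 4.68 per row, and held 126 and 117 counts against 113 and 125 in their other rows. Over both replicates the start row was above the mean of the gene's other rows in 14 of the 25. Against the sum of the other rows, 11 had more counts in the start row and 2 had equal counts. The other 12 had more outside it (Smarcc1, Dpf2, Pcgf6 and Spin1 among them). Kdm4c and Jmjd1c were also among the 12, but their start rows were above the mean of their 4 other rows. Over all coding genes, start rows had 3.62 and 3.81 counts per row. Of the member start rows, 1 was at 0 in all columns (Brd9), and 10 of the 41 other rows were. Jarid2, whose product guides the Polycomb repressive complex PRC2 to its targets, was among the 11, with 5 rows. Its start row (chromosome 13, 44700001 to 44750000) had 6 counts on each allele in replicate 1, then 6 on 129 with 5 on CAS. None of its other rows held more than 1 count on an allele, and the row after the start was at 0 throughout. In Suz12, another PRC2 subunit, the start row (shared with Utp6) held 7 and 6, then 7 and 5, and the row over the rest of the gene held 0. Ehmt1 had 4 and 4, then 6 and 3, in its start row (shared with Arrdc1 and Zmynd19) and 0 in both rows of its interior.

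The listed promoters of the members were rich in CpG dinucleotides, the hallmark of CpG islands. In the 250 bases before the most upstream listed start, 31 members with an entry had a median of 23 CpGs, ranging from 0 to 42. The median was 10 over 20055 promoters of coding genes. Members enter with 1 promoter each, whereas the 20055 include every listed start of a gene, here and in the percentages below. The ETS motif CCGGAAG, searched on both strands, was in 9.68% of member promoters and 9.21% of all; the NF-Y motif CCAAT was in 29% and 35.2%. These 4 stretches are shown because the allelic results turn on their genes (Eed, Jmjd1c and Spin1) or because their row held most of the gene's counts (Jarid2). They are RefSeq sequence on GRCm38.p6, the assembly of the C57BL/6J strain, and so belong to neither allele of the hybrid; capitals mark CpGs.
Eed: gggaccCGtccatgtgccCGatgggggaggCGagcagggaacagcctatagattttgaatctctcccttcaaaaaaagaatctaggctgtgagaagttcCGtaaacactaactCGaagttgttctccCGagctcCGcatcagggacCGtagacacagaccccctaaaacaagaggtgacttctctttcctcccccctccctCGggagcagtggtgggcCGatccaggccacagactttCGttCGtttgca
Jmjd1c: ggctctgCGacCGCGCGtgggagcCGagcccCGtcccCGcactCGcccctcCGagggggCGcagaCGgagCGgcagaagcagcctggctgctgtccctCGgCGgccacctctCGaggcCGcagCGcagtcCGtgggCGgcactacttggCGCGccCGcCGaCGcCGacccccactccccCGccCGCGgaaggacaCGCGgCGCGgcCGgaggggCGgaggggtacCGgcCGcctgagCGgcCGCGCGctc
Spin1: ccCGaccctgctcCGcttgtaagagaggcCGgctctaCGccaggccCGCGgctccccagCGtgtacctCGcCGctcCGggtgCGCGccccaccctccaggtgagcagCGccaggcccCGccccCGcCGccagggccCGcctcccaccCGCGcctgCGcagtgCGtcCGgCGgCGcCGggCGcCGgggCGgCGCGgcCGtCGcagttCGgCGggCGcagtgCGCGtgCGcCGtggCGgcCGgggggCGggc
Jarid2: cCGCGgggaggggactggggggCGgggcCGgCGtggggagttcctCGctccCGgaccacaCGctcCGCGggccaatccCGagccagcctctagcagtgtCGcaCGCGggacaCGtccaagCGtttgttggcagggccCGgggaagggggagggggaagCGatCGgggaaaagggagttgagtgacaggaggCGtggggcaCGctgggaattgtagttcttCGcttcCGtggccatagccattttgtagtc
Eed (chr7:89980977-89981226, minus strand) has 12 CpGs, a number that 46.1% of coding promoters reach. Jmjd1c (chr10:67126838-67127087, plus strand) has 40, reached by 1.72%. Spin1 (chr13:51100630-51100879, plus strand) has 42, reached by 1.13%, and Jarid2 (chr13:44730524-44730773, plus strand) has 23, reached by 18.1%. The Jarid2 stretch holds CCAAT, and neither motif is in the other stretches shown.

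Summed over all members, the alleles differed in opposite directions in the 2 replicates, and both intervals of the 129 share included 50%. The 81 rows held 156 counts on 129 and 166 on CAS in replicate 1, a 129 share of 48.4% (exact Clopper-Pearson 95% interval 42.9 to 54.1%). In replicate 2 they held 168 and 148, a share of 53.2% (47.5 to 58.8%). The mean was 50.8% ± 3.34 (SD, n = 2), against 49.7% ± 0.673 (SD, n = 2) over all rows with a coding gene. The median share per gene was 50% in each replicate, as it was over all coding genes. All such intervals cover counting error only, as if the counts were independent reads; the members' alleles varied 0.406 and 0.407 times as much as that, so the intervals are too wide as a measure of counting error, and an interval that includes 50% does not show equal alleles. Of the 35 genes, 8 (22.9%) were higher on 129 in both replicates, beside 13.3% of all coding genes. On CAS 7 (20%) were higher in both, beside 14.2%. The other 20 were split into 10 with opposite directions and 10 level in at least 1 replicate. Coding genes were level more often (10777 of 18577, with 2690 in opposite directions), so fewer of them could show a direction. Where both libraries had to differ by at least 2 counts, Jmjd1c alone was higher on 129 (3.48% of coding genes) and Chd4 and Eed on CAS (3.85%). With at least 3 counts, Jmjd1c (1.15% of coding genes) and Eed (1.36%) were left. Every 129 count lay above every CAS count at 3 members (Jmjd1c, Mtf2 and Suz12; 8.55% of coding genes) and below at 6 (Ash2l, Chd4, Chd7, Eed, Spin1 and Trim28; 8.62%), and the alleles overlapped at the other 26. The alleles were within 1 count of each other in both replicates at 18 members, beside 61.7% of coding genes. Across the 35 genes the shares in the 2 replicates correlated at r = 0.352, a description of genes that share both libraries and hold few counts each; over 15845 coding genes r was 0.247.

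**Figure D1:**
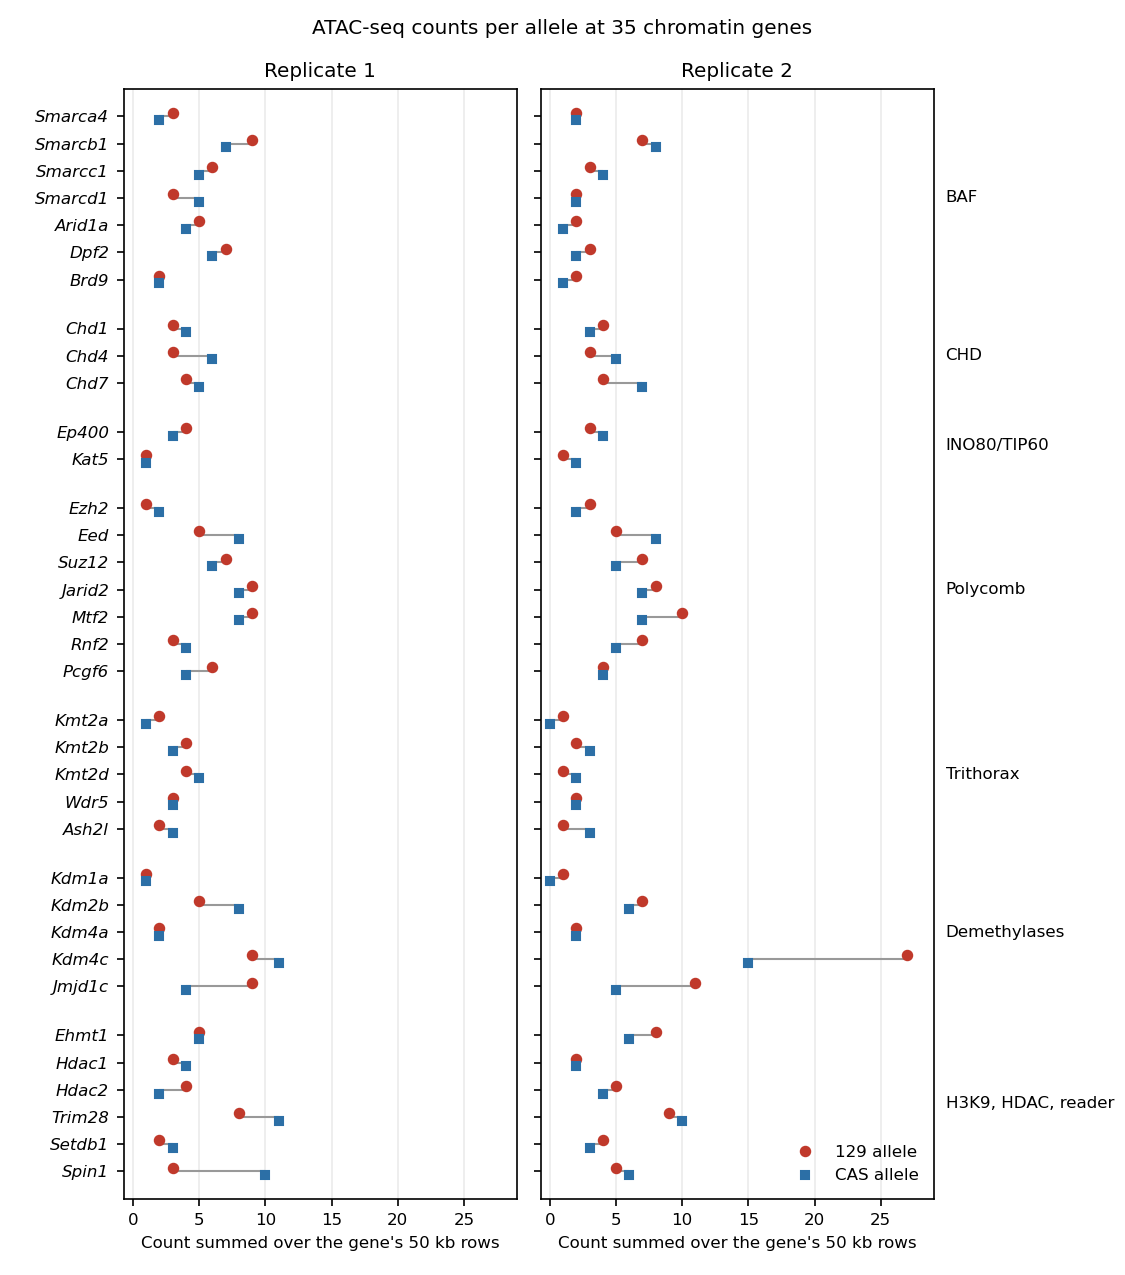
Count per gene (x axis, summed over the gene's 50 kb rows) on the 129 allele (circles) and the CAS allele (squares) at the 35 members with a row, grouped by complex, in replicate 1 (left) and replicate 2 (right). A grey line joins the alleles of a gene. Most pairs lie within 1 or 2 counts; Jmjd1c has 129 higher in both panels (9 and 4, then 11 and 5), Eed has CAS higher in both (5 and 8 in each), and Kdm4c reaches 27 and 15 in replicate 2.

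No gene passed the main test across the genome, which did not pair the alleles by library. With edgeR's quasi-likelihood test on sums per gene, 0% of 9171 coding genes with a total of 10 or more counts passed an adjusted p of 0.05, and 1.38% had an unadjusted p under 0.05 (127 genes; the DESeq2 Wald test also called 0, with 3). Of the 27 members tested, 1 had an unadjusted p under 0.05 (Jmjd1c), and the lowest adjusted p was 0.988. The 8 members left untested held too few counts. edgeR allows for at least the counting error of independent reads: Eed had the same counts in both libraries, yet an SE of 0.56. The alleles varied less than such reads, so these p-values may be too large, and 0 calls do not show equal alleles. With the replicate as a block edgeR called 1 gene, 0.0109% of those tested (1.62% at an unadjusted p under 0.05): Dlg2, no member, named here because it was the only call.

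The BAF remodeler, which slides and ejects nucleosomes, had a 129 share of 53.0% (40.3 to 65.4%) in replicate 1 and 51.2% (35.1 to 67.1%) in replicate 2 over 7 genes and 15 rows. Smarca4, the ATPase BRG1, had 3 counts on 129 against 2 on CAS, then 2 and 2. Among the core subunits, Smarcb1 had 9 and 7, then 7 and 8, Smarcc1 had 6 and 5, then 3 and 4, and Smarcd1 had 3 and 5, then 2 and 2. None of these 4 kept a direction in both replicates. The subunits that distinguish BAF variants leaned to 129 by at most 1 count: Arid1a of canonical BAF had 5 and 4, then 2 and 1. Dpf2, a histone reader of the same form, had 7 and 6, then 3 and 2, and Brd9, a bromodomain subunit of the non-canonical form, had 2 and 2, then 2 and 1. For these genes 129 was at or above CAS in each replicate, but a 1-count difference is the smallest the values can show. In start rows alone 0 of the 7 genes were higher on either allele in both replicates (Dpf2 had 3 and 2, then 0 and 1). The mean share of the complex over both replicates was 43.3% in those rows.

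The 3 CHD members summed to a lean to CAS, to which Chd4 and Chd7 but not Chd1 contributed in both replicates. They had a 129 share of 40.0% (21.1 to 61.3%) and 42.3% (23.4 to 63.1%), and both intervals included 50%. The 13 other CHD and NuRD genes with a row had 49.6% (40.7 to 58.5%) and 50.7% (42.0 to 59.5%). Chd4, the ATPase of the repressive NuRD complex, had 3 counts on 129 and 6 on CAS in replicate 1, and 3 and 5 in replicate 2. CAS was higher in both rows of Chd4 in both replicates, but both rows hold other genes (Acrbp and Lpar5; Iffo1 and Nop2). Its log2 difference (129 over CAS) was -0.83 (SE 0.69, derived from the p; edgeR unadjusted p = 0.23, adjusted p = 0.988). Chd7, a remodeler found at enhancers, had 4 and 5, then 4 and 7, over 5 rows that no other coding gene overlaps. Chd1, which binds methylated lysine 4 of histone H3 and has been tied to open chromatin in mouse stem cells, had 3 and 4, then 4 and 3. Ep400, the ATPase of the TIP60-EP400 complex, had 4 and 3, then 3 and 4, and Kat5, its acetyltransferase, had 1 and 1, then 1 and 2.

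Polycomb genes held the most counts per row of any group, 5.00 and 5.13, and stood at a 129 share of 50.0% (38.6 to 61.4%) and 53.7% (42.3 to 64.7%). Ezh2, the PRC2 methyltransferase, had few and kept no direction: 1 and 2, then 3 and 2. Eed, which binds the methylated histone and anchors the complex, differed most: 5 on 129 against 8 on CAS, the same in both libraries, a share of 38.5% both times. All of them lay in a single row (chromosome 7, 89950001 to 90000000) that holds the listed start shown above. The log2 difference of -0.65 (SE 0.56, edgeR unadjusted p = 0.25, adjusted p = 0.988) did not pass. The 129 share of chromosome 7 as a whole was 45.9% and 46.7%. Suz12, Mtf2 and Jarid2 of PRC2 were higher on 129 in both replicates: Suz12 had 7 and 6, then 7 and 5, Mtf2 had 9 and 8, then 10 and 7, and Jarid2 had 9 and 8, then 8 and 7. Rnf2, the ligase of PRC1 that adds ubiquitin to histone H2A, had 3 and 4, then 7 and 5. Pcgf6, which defines a variant PRC1, had 6 and 4, then 4 and 4.

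Trithorax genes had 4.29 counts per row in replicate 1 and 2.43 in replicate 2. The 5 genes had 15 counts on each allele in replicate 1 (a 129 share of 50.0%, 31.3 to 68.7%) and 7 on 129 and 10 on CAS in replicate 2 (41.2%, 18.4 to 67.1%). Kmt2a, the founding methyltransferase of the family, had 2 and 1, then 1 and 0. Kmt2b had 4 and 3, then 2 and 3, in a row it shares with 7 other coding genes, and Kmt2d, which acts at enhancers, had 4 and 5, then 1 and 2. Of the core subunits common to these enzymes, Wdr5 had 3 and 3, then 2 and 2, and Ash2l had 2 and 3, then 1 and 3. Ash2l lies on chromosome 8, whose 129 share was 44.5% and 41.8%. None of these genes differed by 2 or more counts in both replicates.

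Demethylase genes held the strongest lean to 129 of the groups in replicate 2, where Kdm4c and Jmjd1c held most of the difference. The group had 26 counts on each allele in replicate 1 (50.0%, 35.8 to 64.2%) and 48 on 129 and 28 on CAS in replicate 2 (63.2%, 51.3 to 73.9%). The replicate 2 interval excluded 50% and the replicate 1 interval included it. No interval of another group excluded 50% in either replicate, and the number of intervals looked at was not allowed for. Without Kdm4c the shares were 53.1% (34.7 to 70.9%) and 61.8% (43.6 to 77.8%). Kdm1a, the flavin-dependent demethylase LSD1, had 1 and 1, then 1 and 0. Kdm2b, which brings a variant PRC1 to CpG islands, had 5 and 8, then 7 and 6, and Kdm4a had 2 and 2 in both. Neither direction held in these 3.

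Jmjd1c, a member of the JmjC demethylase family, was the only member higher on 129 by 2 or more counts in both replicates: 9 counts on 129 against 4 on CAS, then 11 against 5. The 129 share was 69.2% and 68.8%, a mean of 69.0% ± 0.340 (SD, n = 2). Its log2 difference was 1.14 (SE 0.55, edgeR unadjusted p = 0.0361, adjusted p = 0.988). The surrounding rows and the chromosome also leaned to 129. Chromosome 10 had a 129 share of 59.8% and 55.6%, and the 10 rows around Jmjd1c (5 upstream and 5 downstream) had 26 and 19, then 31 and 24 counts, a share of 57.8% (42.2 to 72.3%) and 56.4% (42.3 to 69.7%). Of the gene's counts, 5 and 3, then 5 and 2, came from a row (67050001 to 67100000) that also overlaps Reep3 and lies upstream of the listed start. The row with the CpG-rich start shown above had 2 and 1, then 4 and 1. Whether the gene differs from its chromosome was not tested. Hdac2 and Smarcb1, also on chromosome 10, had 129 shares of 66.7% and 55.6%, and of 56.3% and 46.7%. Their start rows were not higher on 129: Hdac2 had 1 and 2, then 2 and 2, and Smarcb1 had 4 and 4, then 2 and 5. The 3 genes together stood at 62.9% (44.9 to 78.5%) and 57.5% (40.9 to 73.0%), and the 32 members elsewhere at 46.7% (40.8 to 52.6%) and 52.5% (46.5 to 58.6%).

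Kdm4c on chromosome 4, which removes methyl groups from lysine 9 of histone H3, had the largest difference between replicate totals in counts, though not in ratio. It had 9 counts on 129 and 11 on CAS in replicate 1 and 27 and 15 in replicate 2, so that the direction turned. Its total was 20 in replicate 1 and 42 in replicate 2. All 5 of its rows had more counts in replicate 2, and 129 was higher in each of them there. The flanking rows moved with the gene: the 8 in the table within 5 rows on either side held 10 counts in replicate 1 and 30 in replicate 2 (4 and 6, then 17 and 13). RefSeq lists 2 starts for it. The upstream one has 0 CpGs and lies in a row with 3 and 4, then 6 and 4, and the other (74251879) has 19 CpGs and lies in the row with the most counts, 4 and 5, then 11 and 7.

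Genes of lysine 9 methylation and deacetylation had 129 shares whose intervals included 50% in both replicates. Ehmt1, a methyltransferase that works with G9a, had 5 and 5, then 8 and 6. Setdb1, the methyltransferase that Trim28 recruits to endogenous retroviruses, had 2 and 3, then 4 and 3. Trim28, the corepressor bound by KRAB zinc finger proteins, had 8 and 11, then 9 and 10, on chromosome 7. The deacetylases Hdac1 and Hdac2, which work in NuRD and other complexes, had 3 and 4, then 2 and 2, and 4 and 2, then 5 and 4. The 6 genes of the group, the reader Spin1 included, had a 129 share of 41.7% (29.1 to 55.1%) and 51.6% (38.7 to 64.2%).

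Spin1, a reader of methylated lysine 4 of histone H3, had the most uneven row of any member, and it lay before the listed start. The gene summed to 3 counts on 129 and 10 on CAS in replicate 1, and 5 and 6 in replicate 2 (log2 difference -0.96, SE 0.59, edgeR unadjusted p = 0.104, adjusted p = 0.988). The row at chromosome 13, 51050001 to 51100000 had 0 on 129 in both and 7 and 4 on CAS. With 3 counts over both libraries put in place of the 0 on 129, CAS was 3.59-fold higher there. That figure takes the 11 CAS counts as exact and the values as reads, in a row picked as the most uneven of 81. That row holds 2067 bases of the gene body, the far 5' end, and the most upstream start listed for Spin1 (51100880) falls in the next row, which had 2 and 2, then 3 and 1. Without the uneven row the gene had 3 and 3, then 5 and 2. The row further upstream (51000001 to 51050000), which no coding gene overlaps, leaned the same way, at 1 and 7, then 2 and 4. With that row included, the 10 rows around the gene (5 on either side) held 2 and 9, then 5 and 6 counts. Their 129 share was 18.2% (2.28 to 51.8%) and 45.5% (16.7 to 76.6%). edgeR on single rows did not call the uneven row (unadjusted p = 0.0228, adjusted p = 0.999; 0% of 34417 rows called, 2.64% at an unadjusted p under 0.05). Limma on centred square roots of the counts did (adjusted p = 2.29e-05; 0.227% of rows called, 8.09% at an unadjusted p under 0.05). With the replicate as a block, edgeR gave it an adjusted p of 1. Of the 81 member rows, 8 were higher on 129 in both replicates (8.96% of all rows) and 9 on CAS (9.87%). With at least 3 counts of difference in both, 0 were higher on 129 (0.234% of all rows) and 2 on CAS (0.271%), the Eed row and this one.

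**Figure D2:**
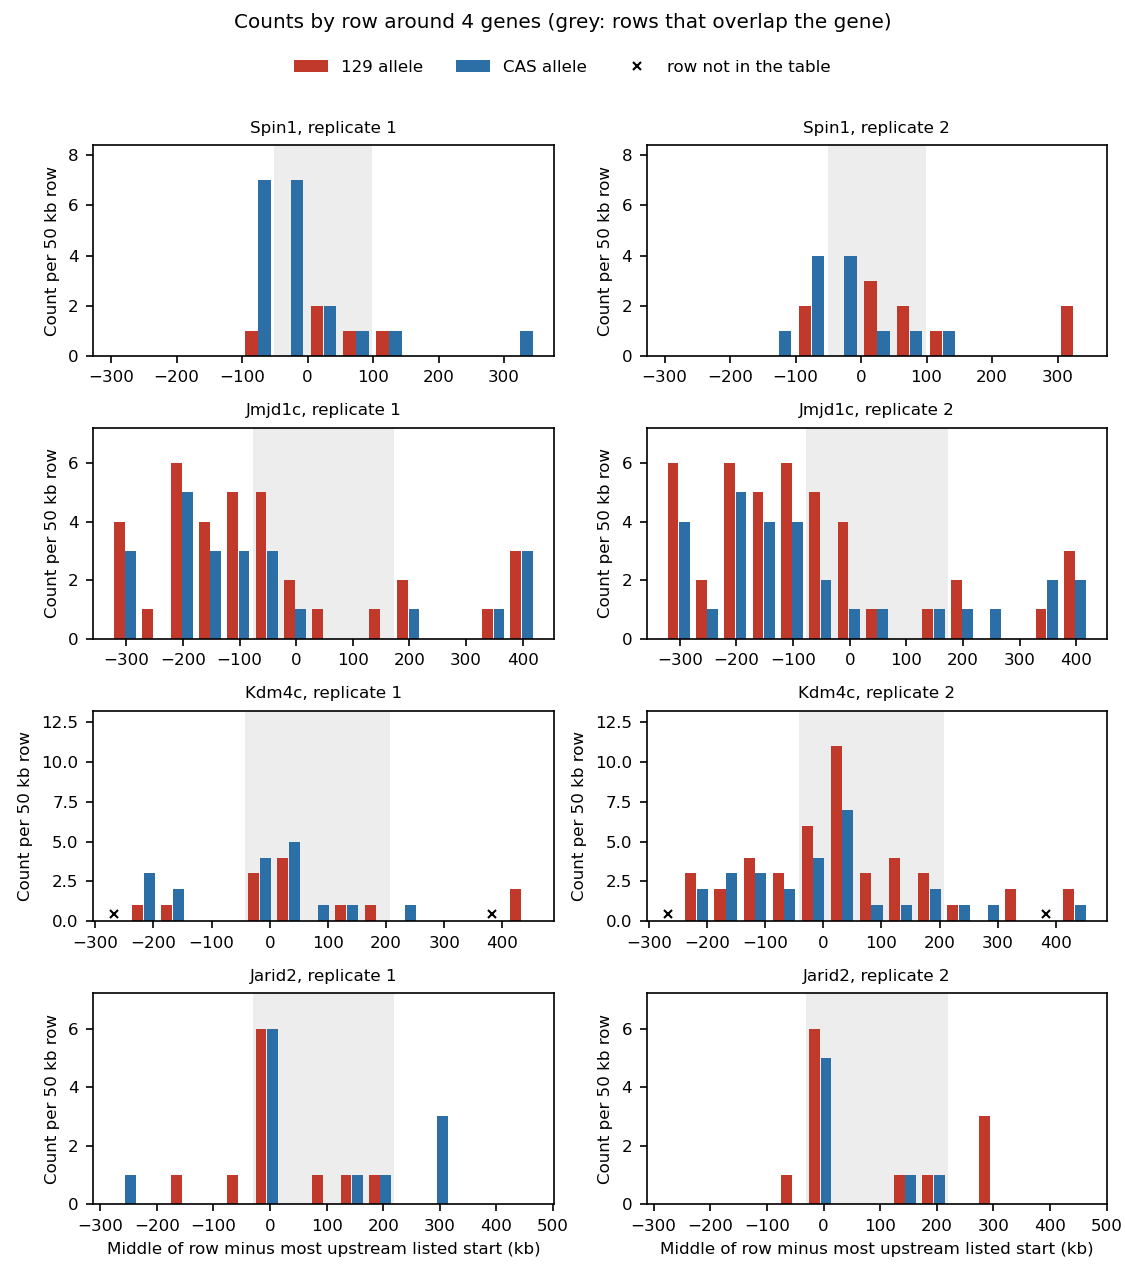
Counts per 50 kb row (y axis) on the 129 allele (red) and the CAS allele (blue) by distance of the row's middle from the most upstream listed start (x axis, kb; downstream is positive) at Spin1, Jmjd1c, Kdm4c and Jarid2, in replicate 1 (left) and replicate 2 (right). Grey marks the rows that overlap the gene and crosses mark rows that are not in the table. At Spin1 the CAS bars of 7 and 7, then 4 and 4, stand before the start; at Jarid2 counts of 5 or 6 per allele stand at the start.

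**Figure D3:**
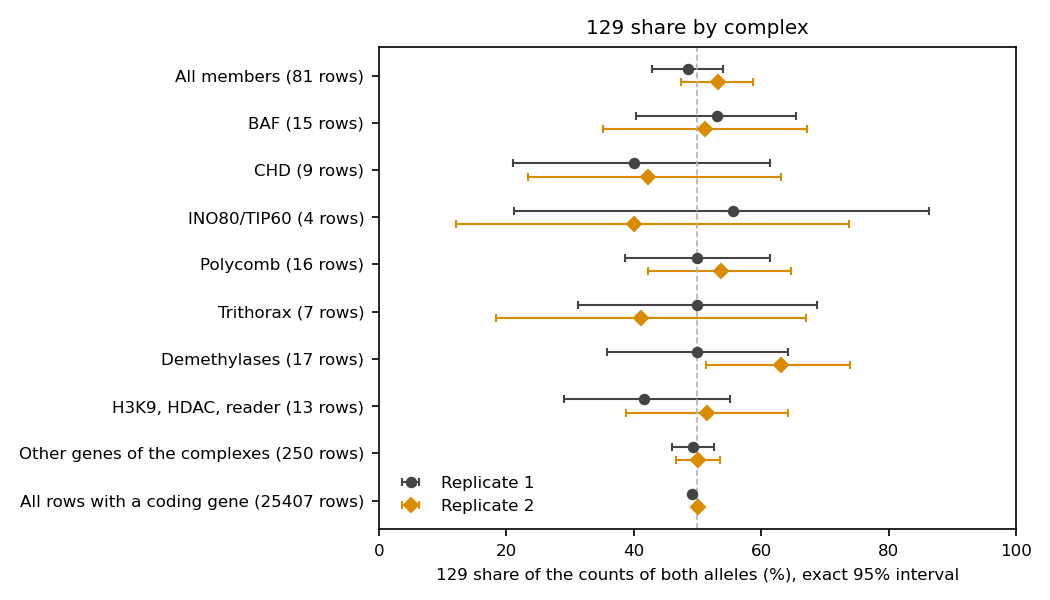
The 129 share of the counts of both alleles (x axis, percent) for all members, each group, the other genes of the same complexes and all rows with a coding gene, in replicate 1 (circles) and replicate 2 (diamonds), with exact 95% intervals. The intervals of the 7 groups of members cross 50% except that of the demethylases in replicate 2 (51.3 to 73.9%).

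The members held a smaller part of the counts in replicate 2 than in replicate 1, and so did the other genes of the same complexes. Over all rows replicate 2 held 1.33 times the counts of replicate 1, but over the member rows the ratio was 0.981 (316 and 322 counts), and 0.907 without Kdm4c. Over the rows of the 124 other genes of the complexes it was 0.929. Of the 35 members, 19 had fewer counts in replicate 2 (54.3%, beside 53.2% of those 124 genes and 33.4% of all coding genes) and 9 had more. The ratio was 1.18 over rows with a coding gene, 1.05 over all rows with a start and 1.76 over rows without a coding gene. Among the groups it was 0.567 for Trithorax and 0.621 for BAF genes, near 1 for CHD (1.04), INO80 and TIP60 (1.11), Polycomb (1.02) and lysine 9 and deacetylase genes (1.07), and 1.46 for demethylases (1.06 without Kdm4c). Dpf2 had 13 counts in replicate 1 and 5 in replicate 2 (a ratio of 0.385), and Arid1a and Kmt2d each had 9 and 3 (0.333), the same ratio as the 3 and 1 of Kmt2a. Eed, Trim28 and Mtf2 had equal totals in both (13, 19 and 17). With 1 library on each side, this difference has no replicate check.

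**Figure D4:**
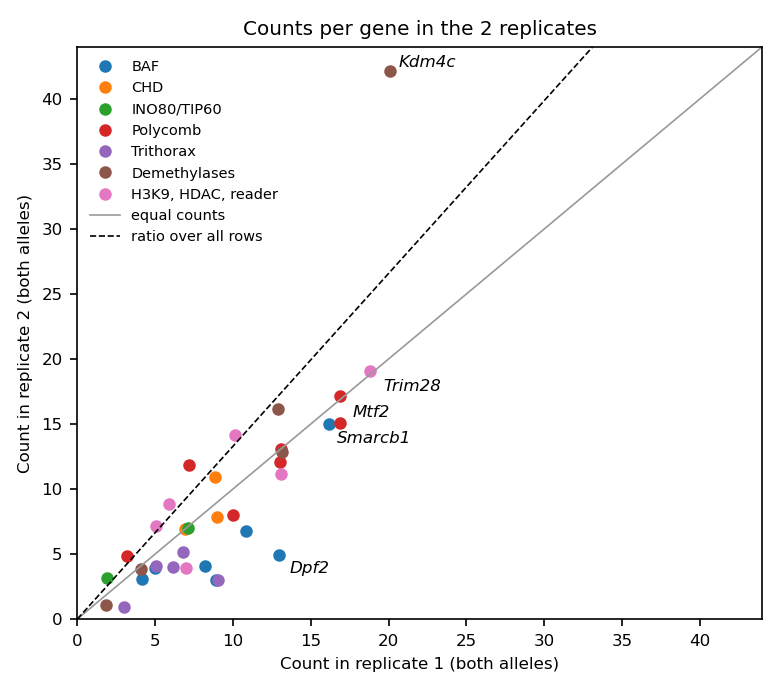
Counts per gene summed over both alleles in replicate 1 (x axis) and replicate 2 (y axis) for the 35 members, coloured by group, with points shifted by up to 0.2 counts to separate them. The dashed line is the ratio over all rows (1.33) and the grey line marks equal counts. Most genes lie below the dashed line; Kdm4c, at 20 and 42, lies above it.

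The same complexes have many further genes, and 124 of 130 listed had a row. Their 250 rows had a 129 share of 49.3% (46.0 to 52.6%) and 50.1% (46.6 to 53.5%). Of the 124, 14 were higher on 129 in both replicates (13.3% of all coding genes) and 19 on CAS (14.2%), and 0 of the 74 tested were called by edgeR, with 1 (Chd9) at an unadjusted p under 0.05. By complex, higher on 129 and on CAS were 3 and 4 of 20 BAF genes, 4 and 3 of 13 CHD and NuRD genes, 2 and 2 of 22 INO80 and TIP60 genes and 2 and 3 of 23 Polycomb genes. They were 1 and 1 of 12 Trithorax genes, 1 and 1 of 14 demethylases and 1 and 5 of 20 genes of the lysine 9 and deacetylase group. With 3 or more counts of difference in both replicates, 3 of the 124 were higher on 129 (1.15% of coding genes) and 2 on CAS (1.36%); all 5 are on the CHD and NuRD list, which was not tested. Chd6 had 7 and 4, then 11 and 7, and the NuRD subunits Mta2 (9 and 6, then 8 and 3) and Mta3 (7 and 3, then 10 and 5) also had 129 higher. Chd2, with 5 and 9 in both, and Chd9, with 9 and 16, then 10 and 18, had CAS higher. Each lay on a chromosome whose 129 share leaned the same way: chromosome 2 for Chd6 (53.7% and 52.3%), 19 for Mta2 (51.1% and 56.0%), 17 for Mta3 (51.8% and 52.6%), 7 for Chd2 (45.9% and 46.7%) and 8 for Chd9 (44.5% and 41.8%). The part of the chromosome in these differences was not tested. The log2 difference of Chd9 was -0.82 (SE 0.40, edgeR unadjusted p = 0.0416, adjusted p = 0.988).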

How the data were processed

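Allele-resolved ATAC-seq of F121-6 stem cells was analysed in 2 replicates. The deposited values are counts per 50 kb row, with 1 column per allele and replicate and 0 further per-sample columns; no normalization is visible. The submitters' processing notes name mm10, Bowtie2, MACS2, SAMtools and bedtools without roles. What is counted is not given in the sources used, nor is allele assignment, and read depth is unknown.

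Gene bodies and starts came from RefSeq on GRCm38.p6 (chromosomes 1 to 19). A gene's count is the sum over rows that share any base with it; 5 members have no listed start. Members and lists were chosen with earlier results of these data known. All 36 members are named; of the other 130 genes, those called or differing by 3 or more counts alike in both replicates.

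Sums per gene (total of 10 or more) and rows with a count were tested with edgeR 4.0.16 (quasi-likelihood, TMM, library sizes from the column totals, Benjamini-Hochberg adjustment) in R 4.3.3, 129 over CAS. Alternatives were limma 3.58.1 on square roots of the count plus 0.375, DESeq2 1.42.0, other filters, scalings and rows, and the replicate as a block. Each replicate is a single library holding both alleles, which pairs them (deviations correlated at r = 0.517 over genes tested). SEs were derived from the difference and its p. The edgeR fit per gene was also run on simulated counts that vary less than independent reads. How many known changes it recovered is not reported here, so an absence of calls does not show equal alleles.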

Additional observations from a re-analysis of the deposited data

How the results depend on the processing

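The count of genes called was 0 under each of the 8 settings without pairing: an adjusted p threshold of 0.1, no filter, filterByExpr, DESeq2 size factors, a shared library size for the alleles, the DESeq2 Wald test, rows at least 50% inside the gene or with its start, and the start row alone. With the replicate block it was 1 (Dlg2). On single rows limma called 78 against 0 with edgeR; the cause was not tested. Members higher on 129 in both replicates numbered 8, then 1 at 2 or more counts, 5 with rows at least 50% inside or with the start, and 4 in start rows; on CAS they numbered 7, then 2, 6 and 4. The members' 129 share lay between 48.4 and 53.2% with each replicate left out, and between 49.6 and 50.1% under the other settings given as a share. Taken as the mean over the replicates of the log2 ratio of counts with 0.5 added, Spin1 was at -0.91 with all rows. On that measure it turned to 0.57 without the row before its listed start, a setting chosen after seeing the data. Without replicate 1 Spin1 was at -0.24 and without replicate 2 at -1.59. Jmjd1c lay between 1.06 and 1.36, Eed between -0.63 and -0.68 and Chd4 between -0.65 and -0.89. In these ranges the values without a replicate are also such log2 ratios of counts, whereas the others are fitted. These genes did not pass filterByExpr, and Jmjd1c and Chd4 had too few counts in the start row to be fitted. Leaving out a replicate allows no test, since 1 library remains. Counts this small, of unknown read depth, limit every comparison: most members differ by 1 or 2 counts.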
